A study of Mus musculus with 18 samples.

Results

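A stretch of mouse chromosome 17 from Mas1 to just past Smok4a (12.8 to 13.6 Mb, build mm10) was described, where the summed ChIP signal of 4 targets had been seen to be lower in G9a knockout than in control cardiomyocytes. Its members are the regions of the authors' 4 deposited lists whose midpoint lies in this interval, 647 of 2377384 listed regions in all. Of these, 163 are G9a regions, 190 H3K9me2 regions, 117 H3K27me3 regions and 177 Mef2c regions. The stretch was chosen by its summed values, which were lower in knockout, so the differences between the genotypes inside it are given as a description and were not tested. The 1 Mb on each side served for comparison and held 1004 listed regions before and 1060 after the stretch.

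The study profiled cardiomyocyte-enriched populations of the mouse heart by chromatin immunoprecipitation and sequencing (ChIP-seq). The mice were of strain C57BL/6J. The group called KO here had the genotype G9a flox/flox with alphaMHC-MerCreMer +/-, and the group called Cre had alphaMHC-MerCreMer +/- alone, so both groups carried the Cre transgene. MerCreMer is a form of Cre that needs tamoxifen to act, and its promoter here, that of the alpha myosin heavy chain, is active in heart muscle cells. Other cells of an enriched population would keep G9a. The sources used here do not give age, treatment or the number of animals behind a library. For every target there were 2 libraries per genotype, plus 1 input library per genotype that was not analysed here. The antibodies were from Sigma for G9a, from Abcam for H3K9me2 and Mef2c, and from Millipore for H3K27me3.

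The proximal part of mouse chromosome 17 holds the t-complex, a region known for variant chromosomes, the t haplotypes, which heterozygous males pass to most of their offspring. Smok genes encode sperm motility kinases, and Tcp10 genes encode t-complex proteins made in male germ cells, and both occur as several near-identical copies. G9a, encoded by Ehmt2, is the enzyme that makes H3K9me2, a methyl mark on histone H3. H3K27me3 is the mark of Polycomb repressive complex 2, and both marks are found at silent genes. Mef2c is a factor that binds the control regions of muscle genes.

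Near-identical copies limit what short reads can tell apart, and the promoters at hand show how close some of the copies are. No promoter of Smok2a was at hand, so Smok2a and Smok2b were not compared. Each sequence is a window of 250 bases at a gene's start in RefSeq (GRCm38.p6), plus strand, 5′ to 3′. The windows of Smok2b and Tcp10c end just before the gene span given below. Those of Tcp10a and Tcp10b reach some bases into it. In Smok2b (chr17:13230013-13230262) the capitals mark 2 copies of the unit GGTGGAGTT next to the gene's start. In Tcp10a (chr17:7324410-7324659) the capital marks the base that differs from Tcp10c, and in Tcp10b (chr17:13060861-13061110) the base that Tcp10c (chr17:13354322-13354571) lacks.
Smok2b: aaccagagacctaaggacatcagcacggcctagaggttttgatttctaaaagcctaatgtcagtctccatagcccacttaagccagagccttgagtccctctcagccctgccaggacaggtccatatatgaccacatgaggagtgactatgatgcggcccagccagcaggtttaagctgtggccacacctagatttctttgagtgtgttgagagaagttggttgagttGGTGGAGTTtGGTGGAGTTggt
Tcp10a: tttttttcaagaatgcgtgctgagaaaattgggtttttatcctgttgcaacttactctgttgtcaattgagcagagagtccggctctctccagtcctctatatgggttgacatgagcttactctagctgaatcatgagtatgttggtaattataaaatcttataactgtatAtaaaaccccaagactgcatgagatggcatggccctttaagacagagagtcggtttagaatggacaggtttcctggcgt
Tcp10b: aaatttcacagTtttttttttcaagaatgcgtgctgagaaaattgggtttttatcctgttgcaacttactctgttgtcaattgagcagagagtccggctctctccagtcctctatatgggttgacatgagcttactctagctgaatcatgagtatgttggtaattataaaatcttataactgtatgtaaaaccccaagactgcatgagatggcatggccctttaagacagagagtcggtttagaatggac
Tcp10c: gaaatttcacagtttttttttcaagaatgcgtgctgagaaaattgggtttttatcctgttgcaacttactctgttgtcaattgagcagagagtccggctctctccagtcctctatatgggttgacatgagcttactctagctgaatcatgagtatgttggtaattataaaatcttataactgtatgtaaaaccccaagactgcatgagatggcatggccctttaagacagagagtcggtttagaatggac

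Aligned to each other, the promoters of Tcp10b and Tcp10c matched at 249 of 250 bases, with 1 base inserted. Those of Tcp10a and Tcp10c matched at 235 of 236 aligned bases, and so did those of Tcp10a and Tcp10b. The promoter of Smok2b matched that of Smok3a, a kinase gene on chromosome 5, at 203 of 215 aligned bases (94.4%). It matched those of Smok3b and Smok3c at 188 of 200 aligned bases each (94.0%). The sources used here do not say how reads that fit several copies were placed, so values at single copies of Smok2 and Tcp10 are uncertain. The unit GGTGGAGTT, searched on both strands, occurred at least once in 97 of 32851 promoter windows of this length (0.295%), and 1 window, that of Smok2b, held 2 copies. The MEF2 consensus motif was in none of the 4 windows and in 959 of all windows (2.92%). No match says only that these letters are not in this window.

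Every listed region has 4 whole-number signal values, the first and second for Cre and the first and second for KO, and the −log10 p that the authors' comparison gave it. The scale of the values and the sequencing depth behind them are unknown. The values carry no replicate number, so the first value of 1 target need not come from the same mouse as the first value of another. With 2 values against 2, no region can reach the 0.05 level in an exact permutation test, so regions are described by whether the groups overlap. ChIP holds no RNA level, so the cell type could not be checked against markers. The strongest G9a region of a gene was lower in KO at 66.7% of all protein-coding genes with one, and at 4 of 7 cardiomyocyte, 4 of 4 endothelial, 4 of 4 fibroblast, 3 of 4 leukocyte and 2 of 3 smooth muscle marker genes. Of 7 male germline genes, 3 of them in the inner stretch described below, it was lower at 6. For H3K9me2, lower at 33.7% of all genes, the counts were 1 of 5 cardiomyocyte, 1 of 4 endothelial, 3 of 4 fibroblast, 4 of 4 leukocyte, 1 of 3 smooth muscle and 6 of 7 male germline genes. For H3K27me3 (67.3% of all genes) they were 3 of 5, 3 of 4, 3 of 4, 2 of 3, 0 of 3 and 4 of 5, and for Mef2c (66.3%) 4 of 6, 4 of 4, 3 of 4, 3 of 4, 1 of 3 and 7 of 7, in the same order. The part of the cell makeup in the results was not tested. Bases between listed regions have no value. The names of the lists call them filtered differential peaks, so signal that was alike in both genotypes may be missing from them.

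Most listed regions of the stretch were lower in KO for all 4 targets. For G9a, 113 of 163 regions were lower in KO (69.3%), where 61.5% of all listed G9a regions were. For Mef2c, 136 of 177 were lower (76.8%), against 61.7% of all. For H3K27me3, 88 of 117 were lower (75.2%), against 63.3% of all. For H3K9me2, 135 of 190 regions of the stretch were lower (71.1%), while 39.7% of all listed H3K9me2 regions were, and the median log2 ratio of KO to Cre was −0.83 in the stretch and 0.72 over the whole list. These shares were read from the contrast that chose the stretch, and nothing is drawn from their height.

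The 4 values of a region often did not overlap between the genotypes. Both KO values lay below both Cre values in 91 G9a regions (55.8%, against 39.2% of all listed G9a regions) and in 91 H3K9me2 regions (47.9%, against 24.9% of all). For H3K27me3 this held for 62 regions (53.0%, against 44.5%), and for Mef2c for 110 regions (62.1%, against 42.7%). Single log2 ratios ranged from −3.57 to 3.01 for G9a, from −2.65 to 2.38 for H3K9me2, from −2.63 to 2.34 for H3K27me3 and from −6.90 to 2.18 for Mef2c.

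The first question was whether the 4 targets were lower over the same sequence. Values were summed over the regions of each 50 kb step, by midpoint, and a log2 ratio of the mean KO sum to the mean Cre sum was taken with 1 added to each mean. Of the 16 steps of the stretch, 15 held regions of all 4 targets, and 9 of these were lower in KO in all 4 targets, where 15.1% of all 50 kb steps of chromosomes 1 to 19 and X were. In 7 steps the log2 ratio was at or below −0.75 in all 4 targets, a limit set after the profile was seen, and 0.0433% of all steps (19 of 43870) met it. The 7 steps followed each other without a break, from 13150001 to 13500000. In each of them both KO sums lay below both Cre sums in all 4 targets, which 2.20% of all steps showed.

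**Figure D1:**
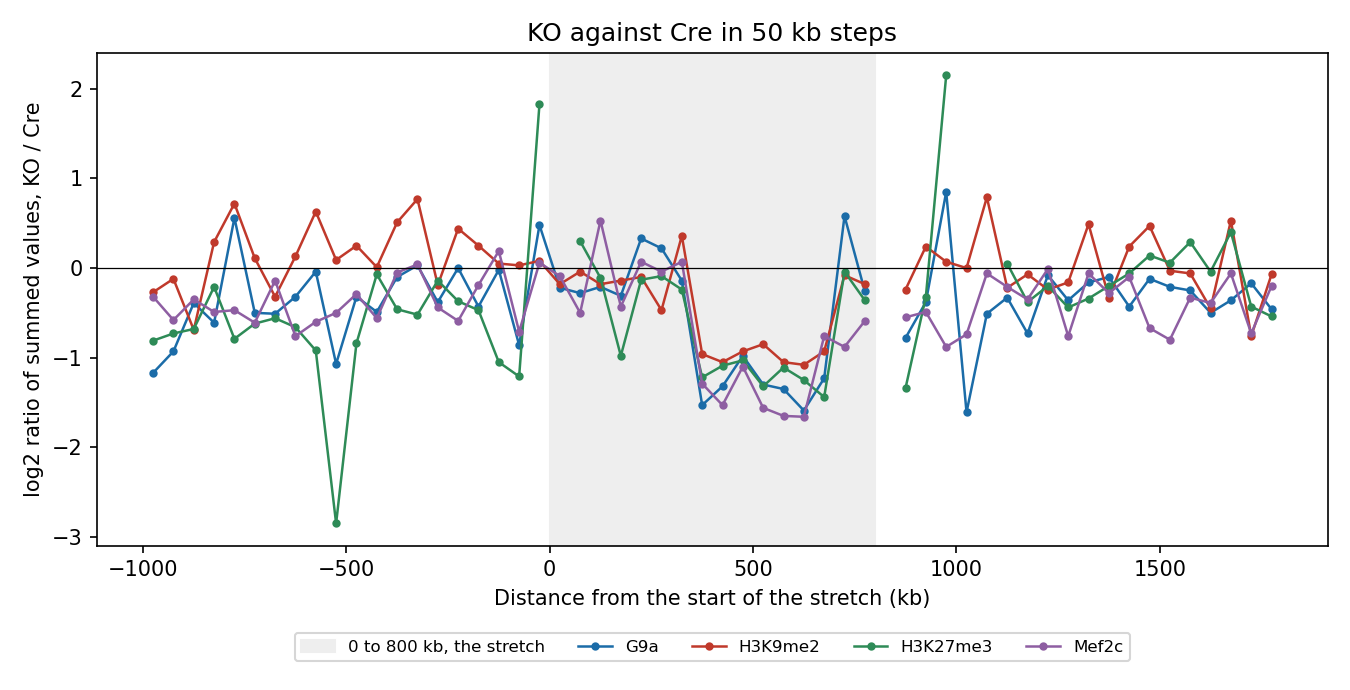
Log2 ratio of KO to Cre summed values (vertical axis) in 50 kb steps against distance from the start of the 800 kb stretch in kb (horizontal axis), with 1 line per target and the stretch in grey; gaps in a line are steps with no listed region of that target. In 7 neighbouring steps from 350 kb all 4 lines lie between −1.66 and −0.76.

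Within this run all 4 targets were lower in every step, by amounts that differed between them. The step ratios ranged from −1.59 to −0.98 for G9a, from −1.08 to −0.85 for H3K9me2, from −1.44 to −1.03 for H3K27me3 and from −1.66 to −0.76 for Mef2c. Their medians were −1.32, −0.96, −1.22 and −1.53 in that order. In the other 8 steps of the stretch with all 4 targets the medians were −0.17, −0.12, −0.12 and −0.24, and 2 of the 8 were lower in all 4. In the flanks the medians were −0.36, 0.05, −0.43 and −0.39, and over the genome −0.30, 0.24, −0.34 and −0.33. None of the 37 flank steps with all 4 targets reached −0.75 in every target, and 2 had both KO sums below both Cre sums in all 4.

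The change from step to step at the borders was abrupt. In the step just before the run (13100001 to 13150000) the log2 ratios were −0.14, 0.36, −0.24 and 0.07 in the order G9a, H3K9me2, H3K27me3 and Mef2c. The first step of the run gave −1.53, −0.96, −1.22 and −1.29 in the same order. At the other end, the last step of the run gave −1.23, −0.93, −1.44 and −0.76, and the step after it gave 0.58, −0.08, −0.04 and −0.88. Mef2c therefore stayed low past the end of the run, where the other targets did not. Most of its signal in that step came from 1 region (13540251 to 13546350), with 1748 and 3137 in Cre against 1059 and 1453 in KO.

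The single regions placed the borders more closely. The inner stretch was taken from the first to the last region of the run that was lower in KO with a −log10 p of at least 30 in the authors' deposited lists, a limit chosen after the values were seen, and it spanned 13177101 to 13458550 (281 kb). It held 276 of the 647 members. It was bounded by regions lower in KO, within steps picked for low ratios, so nothing is drawn from its high counts of lower regions. At the start, the first such G9a region (13177101 to 13179450) had values of 575 and 856 in Cre against 128 and 218 in KO. The first H3K27me3 region (13177151 to 13196100) had 7628 and 9846 in Cre against 3245 and 3147 in KO, and the first Mef2c region (13177201 to 13178650) had 297 and 664 against 188 and 144. These 3 regions start within 100 bp of each other, and in each both KO values lie below both Cre values. The first H3K9me2 region past the limit (13178801 to 13181900) had 848 and 1229 in Cre against 432 and 205 in KO. A weaker H3K9me2 region starts at 13177351, with overlapping values of 117 and 381 in Cre against 159 and 72 in KO.

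Just outside this border the targets went different ways. The last G9a region before it (13172751 to 13173500) had 73 and 65 in Cre against 233 and 22 in KO, and the last Mef2c region (13172451 to 13172800) had 32 and 4 against 40 and 96. The last H3K27me3 region (13174551 to 13175700) had 331 and 262 in Cre against 281 and 95 in KO, while the one before it (13172451 to 13173850) had 303 and 401 against 226 and 222. G9a overlapped between the genotypes, Mef2c was higher in both KO libraries, and H3K27me3 overlapped in the nearer region and was lower in the other.

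The end was less sharp. It was sought only inside the run, whose steps were picked for low ratios in all 4 targets. A near-common end is partly set by that choice. Farther on, other regions lower in KO passed the limit, among them G9a at 13589351 to 13592050 and Mef2c at 13590451 to 13590900 and 13654201 to 13655850. Within the run, the last regions past the limit ended within 6750 bp of each other. They ended at 13456500 for G9a (810 and 794 in Cre against 250 and 283 in KO) and at 13456150 for H3K9me2 (496 and 651 against 280 and 159). For H3K27me3 the end was at 13458550 (455 and 561 against 153 and 220) and for Mef2c at 13451800 (370 and 754 against 67 and 13). In all 4 the groups stood apart. From there to the end of the run, 11 of 15 G9a regions, 5 of 9 H3K9me2 regions, 2 of 2 H3K27me3 regions and 4 of 12 Mef2c regions were lower in KO. Of all listed regions, 61.5%, 39.7%, 63.3% and 61.7% were lower, in that order. The values of the regions past the inner stretch were small. The first H3K27me3 region (13468651 to 13470300) had 358 and 293 in Cre against 79 and 261 in KO. G9a was lower at 13461701 to 13462350 (142 and 75 in Cre against 67 and 41 in KO) and higher at 13475101 to 13475500 (30 and 4 against 94 and 71). H3K9me2 at 13460701 to 13461400 had 0 and 102 in Cre against 109 and 170 in KO, higher in both KO libraries. Mef2c was still lower at 13460801 to 13461700 (212 and 197 against 40 and 85) and then higher at 13462601 to 13462950 (21 and 15 against 34 and 87).

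**Figure D2:**
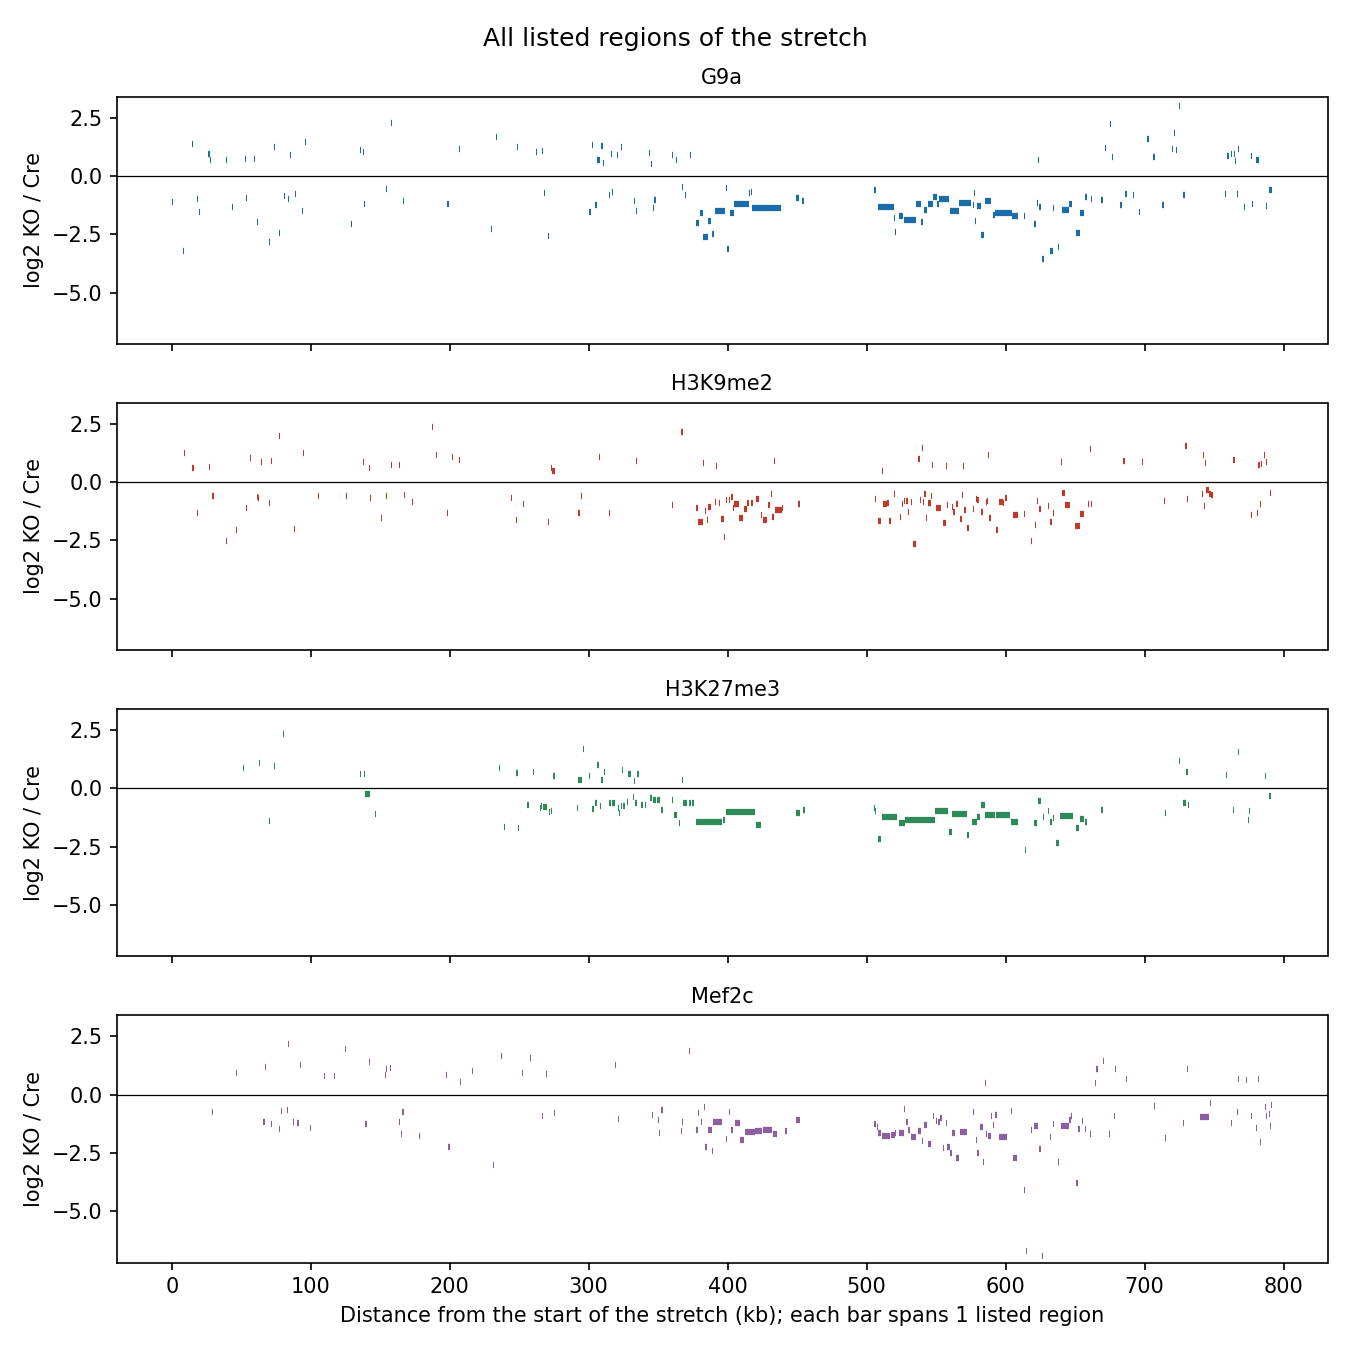
Log2 ratio of KO to Cre (vertical axis) of each of the 647 listed regions, drawn as a bar from its start to its end in kb from the start of the stretch (horizontal axis), with 1 panel per target. Between about 377 and 659 kb, 54 of 55 G9a bars, 88 of 102 H3K9me2 bars, all 37 H3K27me3 bars and 80 of 82 Mef2c bars lie below 0. Of all listed regions, 61.5%, 39.7%, 63.3% and 61.7% were lower in KO, in that order.

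The nominal ends of the interval, at 12.8 and 13.6 Mb, marked no change. The last regions before its start and the first regions after it were small, with values up to 155 and up to 177. On both sides of it the H3K9me2 and H3K27me3 regions were higher in KO and the Mef2c regions lower, while G9a was higher before and lower after it. At its far end, the last G9a region inside (13589351 to 13592050) had 2180 and 2936 in Cre against 1853 and 1492 in KO, and the first outside (13654201 to 13656000) had 833 and 877 against 508 and 380. Both were lower in both KO libraries. For Mef2c, the last region inside (13591101 to 13592050) overlapped, with 569 and 517 in Cre against 170 and 622 in KO. The first Mef2c region outside (13654201 to 13655850) stood apart, with 692 and 803 against 152 and 161. H3K9me2 and H3K27me3 were listed as lower on both sides, and only the H3K9me2 region outside overlapped between the genotypes. The 62.1 kb from 13592051 to 13654150, between the regions inside and outside, held no listed region of any target.

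G9a, the deleted enzyme, was lower in KO in nearly all of its listed regions of the inner stretch. Its 55 regions there covered 62.9% of the sequence, with a median length of 2050 bp. Of them 54 were lower in KO (98.2%, against 61.5% of all listed G9a regions). In 47 both KO values lay below both Cre values (85.5%, against 39.2% of all). The summed values were 50555 and 66543 in Cre against 26146 and 17972 in KO, a log2 ratio of −1.41. Both KO sums lay far below both Cre sums, and the second KO sum was the lowest. The exception among the regions, at 13423501 to 13424000, had 82 and 148 in Cre against 198 and 178 in KO. In the flanks, where listed G9a regions covered 21.7% of the sequence, the log2 ratio was −0.32.

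H3K9me2, the mark G9a makes, was lower in the inner stretch while its log2 ratio in the flanks was near 0. Its 102 regions there were shorter, with a median of 975 bp, and covered 44.4% of the sequence. Of them 88 were lower in KO (86.3%, against 39.7% of all listed H3K9me2 regions). In 62 both KO values lay below both Cre values (60.8%, against 24.9% of all). Their sums were 27371 and 39063 in Cre against 16394 and 15883 in KO, a log2 ratio of −1.04, against 0.02 in the flanks. The KO sums lay close together and below both Cre sums. The region with the highest −log10 p in the authors' deposited list, 146, was at 13333001 to 13335750, with 956 and 1063 in Cre against 161 and 159 in KO. Among the 14 higher regions, the one at 13305901 to 13306300 had 102 and 171 in Cre against 185 and 321 in KO.

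H3K27me3 formed the broadest regions. Its 37 regions in the inner stretch covered 61.0% of the sequence. All 37 were lower in KO, against 63.3% of all listed H3K27me3 regions. In 33 both KO values lay below both Cre values (89.2%, against 44.5% of all). The 3 strongest had a saturated p in the authors' deposited list, which held 11 such regions in all. They spanned 13198851 to 13220000 (10467 and 11281 in Cre against 6027 and 4655 in KO), 13327751 to 13348850 (8386 and 10591 against 3836 and 3512) and 13177151 to 13196100 (given above with the border). The inner sums were 66329 and 80529 in Cre against 31941 and 30667 in KO, a log2 ratio of −1.23, against −0.28 in the flanks. Without regions longer than 5 kb, the log2 ratio over the whole stretch moved from −0.96 to −0.66, since the long H3K27me3 regions all lie in the inner stretch.

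Mef2c, a transcription factor and not a histone mark, showed the lowest ratio. Its 82 regions in the inner stretch covered 52.2% of the sequence. Of them 80 were lower in KO (97.6%, against 61.7% of all listed Mef2c regions). In 67 both KO values lay below both Cre values (81.7%, against 42.7% of all). The sums were 35307 and 52102 in Cre against 14338 and 15191 in KO, a log2 ratio of −1.57, against −0.38 in the flanks. Near the end of the inner stretch several short regions were at or near 0 in KO. The region at 13414601 to 13415050 had 109 and 97 in Cre against 0 and 0 in KO, that at 13426401 to 13427200 had 214 and 261 against 2 and 0, and that at 13413301 to 13413850 had 97 and 155 against 6 and 7. G9a had its lowest ratio at the same place, 13426501 to 13427650, with 480 and 352 in Cre against 68 and 0 in KO. These regions, picked for their low values, lie beside longer ones that kept signal in KO, such as the Mef2c region at 13440201 to 13445400 with 1663 and 1771 in Cre against 768 and 578 in KO.

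**Figure D3:**
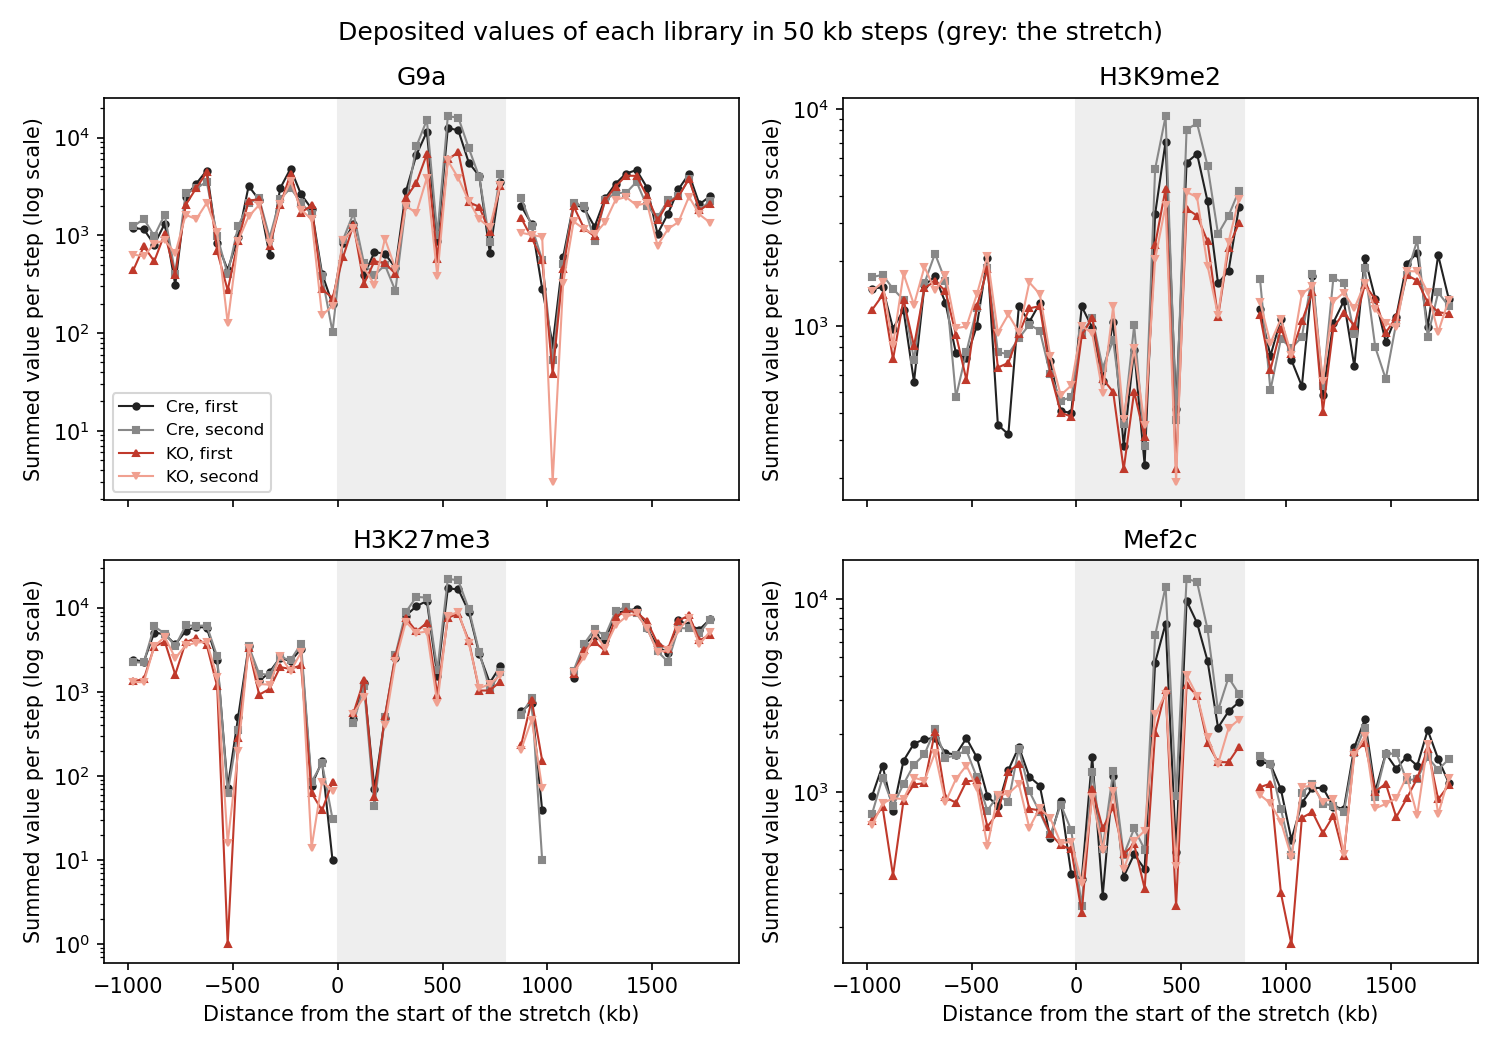
Summed deposited values (vertical axis, log scale) of each library in 50 kb steps against distance from the start of the stretch in kb (horizontal axis), with 1 panel per target, the 2 Cre libraries in black and grey and the 2 KO libraries in red shades, and the stretch shaded. In all 4 panels the highest Cre values lie between 350 and 700 kb, where both Cre lines lie above both KO lines; the first H3K27me3 KO library is higher at 1350 kb (9233) than anywhere in that run (up to 8467).

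Counting listed regions only, the inner stretch carried more signal than its surroundings in both genotypes, and the gap between inner stretch and flanks was smaller in KO. Signal outside the listed differential regions is not counted in either. Per kb of sequence, G9a signal in the inner stretch was 4.59 and 6.76 times that of the flanks in Cre and 2.74 and 2.52 times in KO. For H3K9me2 the ratios were 4.43 and 6.07 in Cre against 2.77 and 2.32 in KO, and for H3K27me3 they were 3.52 and 4.22 against 2.01 and 2.0. For Mef2c they were 4.97 and 7.96 in Cre against 2.78 and 2.84 in KO. In each target both KO libraries lay below both Cre libraries, and the second Cre library was the highest. Per kb of listed sequence alone, the Cre ratios ranged from 1.46 to 2.33 and the KO ratios from 0.814 to 0.995, so the listed regions of the inner stretch were about as strong as those of the flanks in KO and stronger in Cre.

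**Figure D4:**
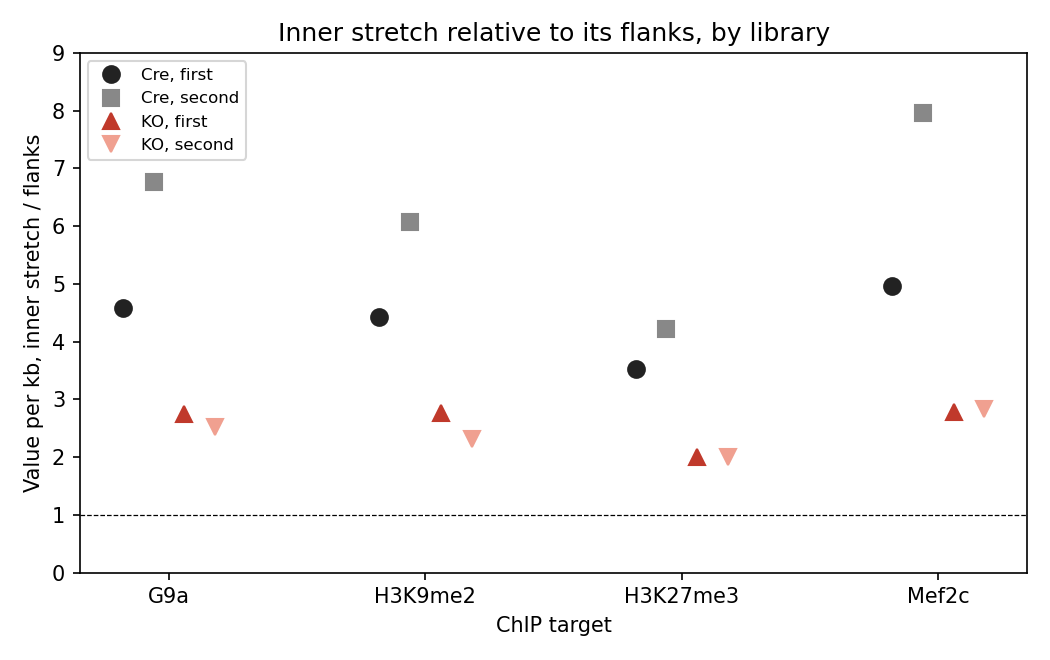
Deposited value per kb of sequence in the inner stretch divided by that in the 1 Mb flanks (vertical axis, starting at 0) for each library of each target (horizontal axis), with Cre libraries in black and grey and KO libraries in red shades. All 8 KO points lie between 2.0 and 2.84, and all 8 Cre points between 3.52 and 7.96.

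Set against the flanks of the same libraries, where a scale factor of a library cancels, the difference was within a narrow range in the 4 targets when all listed regions were used. The log2 ratio of the inner stretch minus that of the flanks was −1.09 for G9a, −1.06 for H3K9me2, −1.19 for Mef2c and −0.95 for H3K27me3. As ratios, KO kept 0.471, 0.480, 0.438 and 0.517, in that order, of the Cre level relative to the flanks. Leaving out 1 library at a time moved the 4 differences between −1.50 and −0.80. The least negative of each target was without the second Cre library, from −0.82 for Mef2c to −0.80 for G9a, with −0.81 for H3K9me2 and H3K27me3. Where the −log10 p had to be 10 or more, the differences spread to −1.29 for H3K9me2, −0.81 for G9a, −0.79 for H3K27me3 and −0.62 for Mef2c.

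Over the whole 800 kb the same differences were −0.76 for G9a, −0.74 for H3K9me2, −0.84 for Mef2c and −0.69 for H3K27me3. Without the second Cre library the Mef2c value was −0.52. The parts of the stretch outside the inner stretch were nearer to the flanks: before it the log2 ratios were −0.13, −0.09, −0.25 and −0.25, and after it −0.22, −0.12, −0.30 and −0.59, in the order G9a, H3K9me2, H3K27me3 and Mef2c.

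The Cre libraries themselves differed inside the inner stretch in a way they did not in the flanks. The second Cre sum was 1.32 times the first for G9a, 1.43 times for H3K9me2, 1.21 times for H3K27me3 and 1.48 times for Mef2c. In the flanks these ratios were 0.893, 1.04, 1.01 and 0.922. The KO libraries showed less of this: the second KO sum was 0.687, 0.969, 0.960 and 1.06 times the first in the inner stretch and 0.746, 1.16, 0.964 and 1.04 times in the flanks. Thus the summed signal of the listed regions here varied between the Cre libraries, with the second value higher in all 4 targets. The values carry no replicate number, so the second value need not come from the same mouse in each target. The part of this variation in the KO difference was not tested.

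Within the run, all 4 targets were lower from nearly the same start to nearly the same end. They are 2 histone marks, a histone methyltransferase and a muscle transcription factor. The run was picked for low ratios in all 4 targets and the borders were sought only inside it, so their agreement is partly set by that choice. The end was less sharp than the start. Mef2c was still low in the step after the run (−0.88), and G9a and Mef2c had regions past the limit on p farther on. Set against the flanks, the amounts lie close together over all listed regions, and they spread under a limit on p. The lists hold no measure of DNA copy number, and the input libraries were not analysed here. Lower copy number of this sequence in KO animals, fewer cells carrying the targets and less of the targets per copy cannot be told apart in these values. Ehmt2, the floxed gene, lies on the same chromosome (34898463 to 34914073), 21.4 Mb past the end of the inner stretch.

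Of the 15 protein-coding genes that touch the stretch, the inner stretch holds 3: Smok2a, Smok2b and Tcp10c. At each gene, the region with the highest −log10 p touching the gene or 2 kb either side was taken. A single G9a region of 20700 bp (13217651 to 13238350) covers both Smok2a (13221188 to 13227658) and Smok2b (13230263 to 13237189), with 6328 and 8474 in Cre against 3466 and 2309 in KO. H3K9me2 was split between the genes. At Smok2a its strongest region (13225451 to 13228150) had 701 and 1166 in Cre against 391 and 218 in KO, and at Smok2b (13233801 to 13237500) it had 1292 and 959 against 491 and 501. In all 3 regions both KO values lay below both Cre values, with log2 ratios of −1.36, −1.61 and −1.18. The Mef2c region at 13225251 to 13232150, which reaches from the end of Smok2a over the start of Smok2b and its promoter window, had 1662 and 2567 in Cre against 598 and 853 in KO, a log2 ratio of −1.54.

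Listed H3K27me3 regions reached Smok2a and not Smok2b, which does not show that the mark is absent at Smok2b. No listed H3K27me3 region touched Smok2b or the 2 kb around it. The strongest one near Smok2a is the broad region that ends at 13220000, before the gene, described above. The next one (13220401 to 13223850) covers that end of the gene, with 1532 and 1883 in Cre against 583 and 555 in KO. The Mef2c region at 13212301 to 13219450 overlaps the broad region, with 2107 and 2901 in Cre against 879 and 773 in KO. Each of these was lower in both KO libraries.

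At Tcp10c (13354572 to 13377223) the strongest region was lower in KO in all 4 targets. The G9a region (13359951 to 13366150) had 1612 and 2468 in Cre against 890 and 535 in KO. H3K27me3 over 13361651 to 13372100 had 4039 and 5641 against 2379 and 2082, and Mef2c over 13367251 to 13371950 had 1388 and 1889 against 535 and 532. H3K9me2 over 13367051 to 13368450 had 293 and 645 in Cre against 152 and 157 in KO. No KO value reached a Cre value in any of them, and the log2 ratios were −1.52 for G9a, −1.60 for H3K9me2, −1.62 for Mef2c and −1.12 for H3K27me3. Without the second Cre library the H3K9me2 ratio was −0.92.

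Tcp10b, the copy with the near-identical promoter, lies outside the inner stretch (13061100 to 13082237) and its strongest regions were shorter and held smaller values. Per kb the gap was narrower: the Cre mean was 217 over 500 bp for G9a, where Tcp10c had 329 over 6200 bp, and 209 over 900 bp for H3K9me2, where Tcp10c had 335 over 1400 bp. Its strongest G9a region had 116 and 101 in Cre against 5 and 30 in KO, and its strongest H3K9me2 region 194 and 183 against 49 and 65. Its strongest H3K27me3 region had 348 and 823 in Cre against 353 and 321 in KO, which overlap, and its log2 ratio of −0.80 became −0.05 without the second Cre library. Its strongest Mef2c region had 76 and 120 in Cre against 8 and 62 in KO. The G9a and Mef2c ratios of −2.57 and −1.46 became −4.19 and −3.46 without the second KO library. Tcp10a, the third copy, lies before the stretch on the same chromosome (7324656 to 7345860) and had 175 and 238 in Cre against 146 and 1 in KO for G9a, 216 and 96 against 18 and 74 for H3K9me2, and 62 and 93 against 22 and 27 for Mef2c. Its H3K27me3 values were higher in KO, with 251 and 141 in Cre against 314 and 400 in KO.

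The other genes of the stretch lie outside the inner stretch and went in both directions. At Mas1, the gene of a receptor of the angiotensin system, the strongest region was lower in all 4 targets. G9a had 140 and 301 in Cre against 17 and 43 in KO, and H3K9me2 had 100 and 160 against 19 and 42. The strongest G9a and H3K27me3 regions lay past the gene's end. Other listed G9a regions inside the gene went both ways. An H3K27me3 region inside it (12851501 to 12852050) was higher, with 123 and 14 in Cre against 167 and 87 in KO. At Sod2, the gene of the manganese superoxide dismutase of mitochondria, the strongest region was higher in 3 targets, and no H3K27me3 region was listed. The values were 93 and 37 in Cre against 102 and 184 in KO for G9a, 25 and 62 against 86 and 85 for H3K9me2, and 66 and 70 against 160 and 116 for Mef2c. In each of these 3 regions both KO values lay above both Cre values.

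Genes of metabolism and protein folding were mixed in the same way. At Acat2, the gene of a cytosolic thiolase, G9a had 67 and 3 in Cre against 151 and 193 in KO, and H3K9me2 had 293 and 46 against 75 and 39. The G9a groups did not overlap and the H3K9me2 groups did. At Acat3, its neighbour, G9a had 136 and 202 in Cre against 102 and 42 in KO. At Tcp1, the gene of a subunit of the chaperonin that folds actin and tubulin, H3K9me2 had 51 and 75 against 37 and 22, and the same region touched Mrpl18, the gene of a mitochondrial ribosomal protein. Mef2c at the end of Tcp1 had 16 and 35 in Cre against 99 and 101 in KO, a log2 ratio of 1.93.

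Wtap, the gene of a subunit of the RNA m6A methyltransferase, had G9a values of 95 and 75 in Cre against 34 and 45 in KO and H3K9me2 values of 23 and 7 against 32 and 132. The former were lower and the latter higher in both KO libraries. Pnldc1, the gene of an enzyme that trims piRNAs in male germ cells, had H3K9me2 values of 159 and 131 in Cre against 28 and 43 in KO. Gpr31b, a receptor gene, had H3K27me3 values of 180 and 209 against 50 and 68. At Unc93a, the gene nearest to the start of the inner stretch, the strongest G9a region was lower (337 and 314 in Cre against 146 and 161 in KO). The strongest H3K27me3 region was higher (240 and 179 against 435 and 394), with no overlap in either.

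In counts, the strongest G9a region was lower in KO at 9 of the 12 genes of the stretch that had one, against 66.7% of all protein-coding genes with a G9a region. For H3K9me2 it was lower at 10 of 15, against 33.7% of all, for H3K27me3 at 7 of 9, against 67.3%, and for Mef2c at 9 of 15, against 66.3%. The median log2 ratio of these regions was −1.29 for G9a (−1.21 over all genes), −1.07 for H3K9me2 (1.25 over all genes), −1.03 for H3K27me3 (−0.81) and −1.16 for Mef2c (−1.21). Without the 3 genes of the inner stretch, the medians were −1.09, −1.0, −0.98 and −0.13.

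A list of 26 further genes of the t-complex and of the Smok and Tcp10 families was counted in the same way. The strongest region was lower in KO at 15 of 23 genes for G9a (66.7% of all genes), at 13 of 21 for H3K9me2 (33.7% of all), at 12 of 20 for Mef2c (66.3%) and at 11 of 20 for H3K27me3 (67.3%). The median log2 ratios were −1.57, −1.44, −1.15 and −0.60 in that order, against −1.21, 1.25, −1.21 and −0.81 over all genes. Smok4a, a transcribed pseudogene of the kinase family that lies in the stretch past the end of the inner stretch (13521456 to 13528434), was higher for G9a, with 9 and 7 in Cre against 56 and 87 in KO. Its H3K9me2 values were 53 and 69 in Cre against 286 and 72 in KO, also higher in both KO libraries. Its Mef2c values of 84 and 111 against 12 and 72 were lower. At Smok3c on chromosome 5, H3K9me2 had 196 and 328 in Cre against 528 and 377 in KO, and Smok3b had no listed region of any target.

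Sequence with no listed region of any target lay inside the run as well. The widest gap within the inner stretch was 49.8 kb (13255651 to 13305450). Just past it, the G9a region at 13305451 to 13306900 had the most signal per kb of all G9a members, with 1944 and 2419 in Cre against 1162 and 1690 in KO. H3K27me3 at 13305501 to 13306000 was its densest member too, with 916 and 897 against 562 and 444. Both were lower in KO with ratios of −0.61 and −0.85, closer to 0 than the inner stretch as a whole. The densest H3K9me2 and Mef2c members lay beyond the inner stretch, at 13590051 to 13591150 (2141 and 2607 in Cre against 1373 and 2031 in KO) and at 13590451 to 13590900 (635 and 739 against 246 and 298).

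Across chromosomes 1 to 19 and X, the 19 steps at or below −0.75 in all 4 targets formed 11 runs. The run described here had 7 steps, 2 runs had 2 steps and 8 had 1. The runs of 2 steps were on chromosome 7 (11500001 to 11600000), with no protein-coding gene, and on chromosome 8 (71800001 to 71900000), with Zfp709, a zinc finger gene, and Gm5373. Runs that were lower in all 4 targets by any amount were as long elsewhere: 8 steps on chromosome 15 (78000001 to 78400000) and 8 on chromosome 9 (42550001 to 42950000), the latter touching Grik4, a glutamate receptor gene. Their mean log2 ratios were between −0.58 and −0.28. Runs with both KO sums below both Cre sums in all 4 targets reached 3 steps elsewhere.

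**Figure D5:**
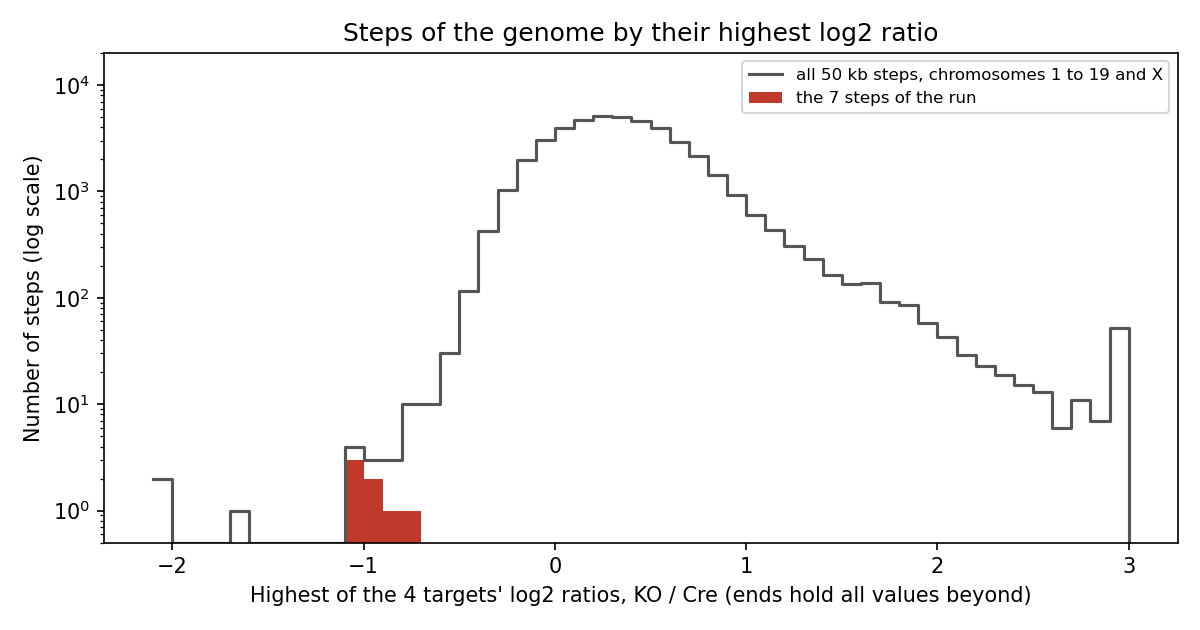
Number of 50 kb steps (vertical axis, log scale) by the highest of the 4 targets' log2 ratios of KO to Cre (horizontal axis), for all 43870 steps of chromosomes 1 to 19 and X (line) and for the 7 steps of the run (red). The median over all steps is 0.33, and the 7 steps lie between −1.08 and −0.76.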

How the data were processed

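The submitters' processing notes name BWA 0.7.10-r789, SAMtools 1.1 and build mm10 (GRCm38). The authors deposited 1 list of regions per target over both genotypes. Each region holds 4 signal values and a score, the −log10 p of the authors' comparison, in a single text cell. The caller, the scale of the values, any normalization and any use of input are unknown from the sources at hand: no count model was used and no test was run. The order, Cre before KO, comes from the names of the lists given in the sample descriptions. Regions were assigned by midpoint and summed in 50 kb steps with Python 3.11.15, numpy 2.4.6 and pandas 2.3.3, and log2 ratios used means plus 1. The summing and the search for runs were tested on simulated data. Promoters came from RefSeq (GRCm38.p6) and were aligned with Biopython 1.88. The 2 replicates per target and genotype that the labels name are separate libraries, and their values are given singly, without SD. The number of animals behind them is not given. Named regions were the 5 with the highest −log10 p of each target, the longest, those at the border and the strongest at each gene of 2 lists, of which the text gives those the results turn on. Others were chosen after their values were seen: the weaker region at the start of the inner stretch, the regions just outside it, the higher regions inside it, the densest regions, the Mef2c and G9a regions near 0, the 2 long Mef2c regions past 13440201, and the second H3K27me3 region at Smok2a. The members and gene lists were chosen with earlier results of these data known. Alternatives covered step size, scaling, limits on p and length, near-identical genes, flanks, pseudocount and single libraries.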

Additional observations from a re-analysis of the deposited data

How the results depend on the processing

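No paired analysis was possible because the deposited values carry no replicate number. No alternative turned the direction of a log2 ratio, and shares and step counts have no direction to turn. Of 112 values that left out 1 library, 93 stayed and 19 moved. Of 112 values under other settings, 83 stayed and 29 moved, and 15 of those that stayed only changed the pseudocount at genes. For log2 ratios, staying meant a change smaller than the spread between libraries of a genotype. For shares it meant a binomial interval that treats regions as independent, and for step counts a set fold range. The values for the inner stretch and for the deep steps were added after seeing the data. After scaling each library to a common median, the log2 ratio over the stretch was −0.77 for G9a, −1.04 for H3K9me2, −0.90 for Mef2c and −0.68 for H3K27me3, and the share of regions with both KO values below both Cre values was 46.6% for G9a, 56.3% for H3K9me2, 49.2% for Mef2c and 43.6% for H3K27me3, the last below the 44.5% of all listed regions as deposited. That share was not taken over all listed regions after scaling. The steps at or below −0.75 in all 4 targets then numbered 5 in place of 7. With a −log10 p of at least 10, in the order G9a, H3K9me2, H3K27me3 and Mef2c, the log2 ratio was −1.32, −1.14, −1.15 and −1.53. The share of lower regions was 88.7%, 92.1%, 91.5% and 96.1%. The share with both KO values below both Cre values was 87.1%, 77.8%, 87.2% and 90.9%. Neither share was taken over all listed regions at that limit, so nothing is drawn from their height. Under that limit the stretch minus the flanks was −1.14 for H3K9me2 and −0.52 for Mef2c, and the inner stretch minus the flanks −0.79 for H3K27me3, −0.62 for Mef2c and −1.29 for H3K9me2. Without regions over 5 kb, H3K27me3 gave −0.66 over the stretch and −0.39 against the flanks. Against the flank before or after alone it gave −0.44 or −0.83, and H3K9me2 against the rest of chromosome 17 gave −1.0. At or below −1 in all 4 targets there were 3 steps. Without 1 library in turn, the stretch ranged from −1.27 to −0.91, −0.93 to −0.49, −1.08 to −0.84 and −1.44 to −0.96, the stretch minus flanks from −0.99 to −0.51, −0.92 to −0.53, −0.79 to −0.57 and −1.12 to −0.52, and the inner stretch minus flanks from −1.36 to −0.80, −1.26 to −0.81, −1.08 to −0.81 and −1.50 to −0.82, in the same order, and 8 to 9 steps were lower in all 4 targets. The least negative of each range was without the second Cre library, and the cause was not tested. The mean value per kb of listed sequence gives the same ratio as the sum, since all libraries of a target share its regions. Sequencing depth is unknown, so its effect on small values could not be stated.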

Other observations

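Another place on chromosome 17 was low in KO in all 4 targets, and there the KO values were at or near 0. It was picked because 2 of its 50 kb steps were at or below −0.75 in all 4 targets. It spans 200 kb (39950001 to 40150000), starts 5.04 Mb past Ehmt2, and its deep steps touch no protein-coding gene. G9a values over its 14 listed regions summed to 1861 and 2203 in Cre and to 11 and 27 in KO, and 12 of the 14 regions were 0 in both KO libraries. H3K9me2 over 15 regions summed to 2585 and 2607 in Cre and to 2 and 0 in KO, with 14 regions at 0 in both. Mef2c over 10 regions summed to 1186 and 1187 in Cre and to 0 and 2 in KO. H3K27me3 had 2 regions there, which summed to 101 and 420 in Cre and to 0 and 0 in KO. Each of these regions was listed as lower in KO, and the first and second Cre sums were closer to each other for 3 of the targets than in the stretch from Smok2a to Tcp10c. DNA copy number was not measured at this place either.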
